A study of Mus musculus with 1 sample.

Results

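The 7 genes described here encode the core of the Hedgehog pathway, and they were picked by symbol from the 32285 genes listed for 1 single-cell RNA sequencing library. They are the ligand *Shh*, the receptor *Ptch1*, the signal transducer *Smo*, the transcription factors *Gli1*, *Gli2* and *Gli3*, and the ligand-binding inhibitor *Hhip*. All 7 were listed, and each had at least 1 UMI. A UMI, or unique molecular identifier, is a tag that marks 1 RNA molecule captured in a droplet, so that UMIs count molecules and not reads. Levels are given as CPM, the UMIs of a gene per 1000000 UMIs of the same cells.

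The library came from adrenal medullae of 5 wild-type mice of mixed sex at postnatal day 15, with no treatment. The 10 adrenals were freed of most cortex by hand, dissociated and pooled, and 10000 viable cells were loaded. There was 1 library, so mice could not be told apart, no test between samples was possible, and the 95% intervals given throughout (exact Poisson for levels, exact conditional for ratios, Clopper-Pearson for shares of cells) cover counting error only. Where a gene had 0 UMIs, the limit given is that of 3 counts in the total.

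In Hedgehog signalling a secreted ligand binds PTCH1 on the receiving cell, which releases SMO from inhibition, and SMO then acts at the primary cilium to turn GLI proteins into activators. GLI2 and GLI3 relay the signal and *Gli1* is one of its best known target genes. *Ptch1* and *Hhip* are at once inhibitors of the pathway and targets of it in many tissues. In the adrenal, SHH is known as a product of progenitor-type cells of the outer cortex that signals to the capsule around the gland, a layer where *Gli1* marks mesenchymal cells. Chromaffin cells of the medulla, which release adrenaline or noradrenaline, derive from the neural crest, and sustentacular cells are the glia-like cells between them.

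After filtering, 10139 cells with a median of 3567 UMIs remained, and 9308 of them fell into 13 named classes. Each class is written with "-like", since it was named from marker genes alone. The 4 classes with chromaffin markers (adrenaline, noradrenaline, cycling and transitioning) held 2606 cells, or 25.7% of the total. The 4 cortex-like classes held 3712 cells, or 36.6%, although the tissue was labelled adrenal medulla. The median depth ran from 1149 UMIs in sustentacular-like to 8381 in cycling cortex-like cells. Of the other cells, 788 carried markers of more than 1 type and 43 stayed unnamed. Scrublet, a doublet caller, marked 669 cells. It marked 64.0% of the cells with markers of more than 1 type and 1.77% of the cells in named classes. The Hedgehog genes were kept out of the clustering, so the classes were not built from the values below.

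Some classes carried RNA of other types. Cycling chromaffin-like cells had 598 CPM of *Star*, a cortical steroidogenic gene, against 27.3 CPM in adrenaline chromaffin-like cells. Fibroblast-like cells (n = 90) had 564 CPM of *Star* and 723 CPM of the chromaffin gene *Chga*, and *Emcn*, an endothelial marker, was found in 62.2% of them. Of 8 fibroblast markers *Col1a1*, *Col1a2*, *Col3a1* and *Dcn* were each in 62.2% to 88.9% of them, while *Lum* was in 21.1%, *Pdgfra* in 15.6%, *Dpt* in 2.22% and *Mfap5* in 0%. They also held mural markers, with *Pdgfrb* in 56.7%, *Abcc9* in 33.3% and *Notch3* and *Kcnj8* in 22.2% each. Of 7 capsule markers *Nr2f2* was in 72.2%, *Col15a1* in 25.6%, *Igf1* in 15.6%, *Tcf21* in 6.67% and *Rspo3* in 4.44%, and *Rspo1* and *Wt1* were at 0 UMIs. With 1 of the 3 markers that a name needed, the class was not called capsule. Outer cortex-like cells held 7 endothelial markers in 19.2% to 32.2% of cells. Of their zone markers *Kcnk3*, *Dab2* and *Wnt4* were in 70.5% to 98.5% and *Agtr1a* in 44.2% of them. *Kcnk9* was in 16.2%, *Agtr1b* in 4.60%, *Cyp11b2* in 4.21% and *Hsd3b6* in 0.894%, while the fasciculata marker *Cyp11b1* was in 82.1%. Another fasciculata marker, *Abcb1b*, was higher in inner than in fasciculata cortex-like cells (3617 and 1064 CPM). The inner cortex markers *Susd3* and *Gpm6a* were at 0 CPM in inner cortex-like cells. The median depth of sustentacular-like cells was under 1/3 of that of all filtered cells. By fold against all other cells, their markers *Gfra3*, *Cdh19* and *Fabp7* ranked 8th, 13th and 15th. *Lgi4*, *Sfrp1* and *Art3* ranked 22nd, 27th and 58th, and *Foxd3*, in 19.55% of cells, was too rare to be ranked. The chromaffin gene *Chgb* was at 2276 CPM, in 35.75% of these cells.

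The annotation places the members on 6 chromosomes of mouse build GRCm38 (mm10, GENCODE M21). *Shh* lies at chr5:28456815-28467256, *Ptch1* at chr13:63508328-63573598 and *Hhip* at chr8:79965851-80058006, all on the minus strand. *Smo* lies at chr6:29735503-29761365 and *Gli3* at chr13:15463235-15730026 on the plus strand. *Gli1* lies at chr10:127329882-127341974 and *Gli2* at chr1:118834132-119053619 on the minus strand. *Shh* overlaps 9530036O11Rik on the other strand, which had 4 UMIs in outer cortex-like cells, and *Gli1* overlaps *Arhgap9*, which had 83 UMIs in all filtered cells. The strand setting used for counting is not given in the sources used here.

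The results turn on *Smo* and *Hhip*. *Smo* was near 0 in adrenaline chromaffin-like cells, where *Hhip* was highest, and noradrenaline chromaffin-like cells were low in both. The upstream promoter sequences of these genes are shown as the RefSeq table for GRCm38.p6 gives them. Each covers 250 bases up to the base before the RefSeq start, 5′ to 3′ on the strand of the gene, and capitals mark GC boxes (GGGCGG or its reverse complement CCGCCC). *Smo* is at chr6:29735247-29735496 (plus strand) and *Hhip* at chr8:80058009-80058258 (minus strand).
Smo: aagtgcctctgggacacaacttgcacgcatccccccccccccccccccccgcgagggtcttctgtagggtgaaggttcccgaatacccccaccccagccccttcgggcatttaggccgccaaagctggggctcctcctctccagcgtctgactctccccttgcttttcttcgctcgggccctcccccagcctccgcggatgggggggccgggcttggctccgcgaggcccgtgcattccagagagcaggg
Hhip: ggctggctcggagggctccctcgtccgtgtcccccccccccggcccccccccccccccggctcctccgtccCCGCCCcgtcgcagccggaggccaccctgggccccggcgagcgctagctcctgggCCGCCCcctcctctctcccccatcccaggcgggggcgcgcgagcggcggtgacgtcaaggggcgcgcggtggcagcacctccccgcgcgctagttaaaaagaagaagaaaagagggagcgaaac
The *Hhip* window held 2 GC boxes and the *Smo* window had 0, and 32.7% of 32851 promoter windows of the same length hold at least 1. The GLI motif GACCACCCA, searched on both strands, was in 0.225% of all windows and in none of the 5 members that the table lists (*Ptch1*, *Smo*, *Gli2*, *Gli3* and *Hhip*). A motif this rare would seldom be met in 5 windows, so its absence says little of these genes. The windows of *Ptch1* (chr13:63565736-63565985) and *Gli3* (chr13:15463473-15463722) also lie inside the gene spans given above, not upstream of them. No factor binding was measured here.

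**Figure D1:**
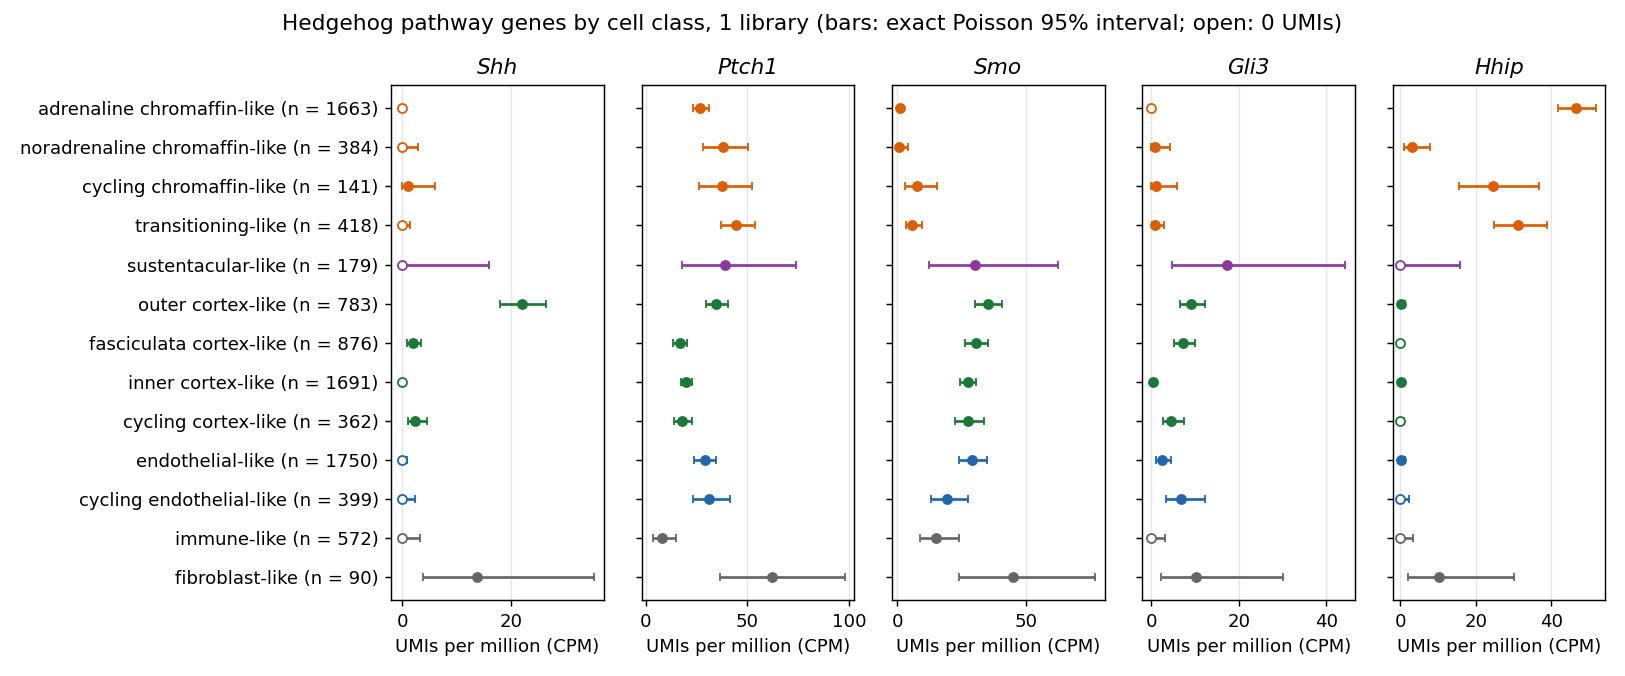
Levels of 5 members in the 13 cell classes. The x axes give CPM with a scale of their own for each gene, points are class values, bars are exact Poisson 95% intervals, and open points are classes with 0 UMIs. *Shh* stands out in outer cortex-like cells (21.9 CPM) and *Hhip* in adrenaline chromaffin-like cells (46.6 CPM). *Smo* is near 0 in adrenaline and noradrenaline chromaffin-like cells, and *Ptch1* is above 0 in every class. Sustentacular-like and fibroblast-like cells have the widest intervals, except that for *Hhip* the cycling chromaffin-like interval is wider than the sustentacular-like one.

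*Shh*, the ligand, was concentrated in outer cortex-like cells. Of 132 *Shh* UMIs in named classes, 108 were in these 783 cells and 127 in the 4 cortex-like classes, which is 96.2% against 55.7% of all UMIs. Its level was 21.9 CPM (18.0 to 26.5) in outer cortex-like, 2.31 CPM (0.999 to 4.56) in cycling cortex-like and 1.92 CPM (0.961 to 3.44) in fasciculata cortex-like cells. In inner cortex-like cells 0 UMIs were found among 1691 cells, which allows up to 0.287 CPM. Outer cortex-like cells thus stood 11.4 times (6.12 to 23.5) above fasciculata cortex-like cells, and the intervals of these classes do not overlap. The fasciculata cortex-like value rested on 11 UMIs, and at the ratio of *Shh* to *Wnt4* seen in outer cortex-like cells, the *Wnt4* found there would come with 3.12 CPM of *Shh*. The level of cycling cortex-like cells by the same reckoning was 2.30 CPM, and the part of carried-over RNA in these low values was not tested. The clustering also moved the fasciculata cortex-like value, and the ratio between these classes was 43.3 when doublets were removed and 62.2 at a finer clustering resolution of 0.8.

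Outside the cortex *Shh* was at 0 UMIs in 7 of 9 classes. Adrenaline chromaffin-like cells had 0 UMIs in 1663 cells (a limit of 0.408 CPM) and endothelial-like cells 0 in 1750 cells (a limit of 0.730 CPM). Cycling chromaffin-like cells had 1 UMI. Fibroblast-like cells had 4 UMIs, or 13.8 CPM (3.75 to 35.2), which did not differ from the outer cortex-like level beyond counting error (ratio 1.59, 0.604 to 5.95). All 4 of these fibroblast-like cells held *Star* and *Dab2* and 3 held *Wnt4*, markers of steroidogenic and of outer cortex cells. Among the 86 other fibroblast-like cells 22.1% held *Star* and 6.98% held *Wnt4*. The 4 cells were deeper, with a median of 8530.5 against 1978 UMIs, which raises every share. At the ratio of *Shh* to *Wnt4* seen in outer cortex-like cells, the *Wnt4* of the fibroblast-like class would come with 3.17 CPM of *Shh*, against 13.8 CPM measured. The part of cortex RNA in the fibroblast-like *Shh* value was not tested.

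By cell, *Shh* was detected in 88 of 783 outer cortex-like cells, or 11.2% (9.11 to 13.7), at a median depth of 5080 UMIs. The background share, taken in immune-like cells with a median of 1638.5 UMIs, was 0 of 572, which allows up to 0.524%. With each cell thinned to 1000 UMIs the shares were 3.33% of 781 outer cortex-like, 0.229% of 875 fasciculata cortex-like and 0% of 504 immune-like cells. Most positive cells held a single molecule, since 16 cells had 2 or more and the highest had 3.

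Cells with *Shh* mostly held the outer cortex marker *Wnt4*, a WNT ligand, and rarely *Cyp11b2*, the aldosterone synthase of the zona glomerulosa. Of the 88 cells with *Shh*, 83 (94.3%, 87.2 to 98.1) held *Wnt4*, against 469 of 695 (67.5%, 63.9 to 71.0) of those without. *Dab2*, another outer cortex marker, was also in 83 of the 88 cells. *Cyp11b2* was in 5 of the 88 cells (5.68%, 1.87 to 12.8) and in 4.03% of the others, with overlapping intervals. The cells with *Shh* were deeper, with a median of 6489 against 4982 UMIs, which raises every share.

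Fasciculata genes were also found in the cells with *Shh*. *Cyp11b1*, the 11β-hydroxylase of glucocorticoid synthesis, was in 62 of the 88 cells (70.5%, 59.8 to 79.7), a lower share than the 83.6% (80.6 to 86.3) of the cells without *Shh* in spite of their lower depth. The level of *Cyp11b1* was 1447 CPM in cells with *Shh* and 2506 CPM in cells without. *Mc2r*, the receptor for ACTH, was in 73 of the 88 cells and in 79.7% of the others.

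When outer cortex-like cells were divided by their *Wnt4* UMIs, a division chosen after the values were seen, *Shh* was higher at each step. It had 4.03 CPM (1.31 to 9.40) in 231 cells with 0 *Wnt4* UMIs, 15.3 CPM (9.22 to 23.9) in 249 cells with 1 to 2, and 34.3 CPM (27.4 to 42.5) in 303 cells with 3 or more. The outer bins differed 8.52 times (3.51 to 26.9). *Ptch1* differed 1.89 times (1.24 to 2.95) between the same bins, while the intervals for *Smo* (1.29, 0.889 to 1.92) and *Gli3* (1.71, 0.757 to 4.36) include 1. The endothelial marker *Emcn* moved the other way, with 337 CPM in the cells with 0 *Wnt4* UMIs and 99.7 CPM in those with 3 or more. The median depths of the bins were 4488, 3674 and 7269 UMIs, from the lowest to the highest *Wnt4* bin. The parts of endothelial RNA and of depth in these values were not tested.

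*Ptch1*, the receptor, was the most evenly spread member, with UMIs in all 13 classes and levels from 7.91 to 61.9 CPM. Fibroblast-like cells had the highest value at 61.9 CPM (36.7 to 97.9, 18 UMIs), and immune-like cells the lowest at 7.91 CPM (3.62 to 15.0, 9 UMIs). Between them stood transitioning-like cells at 44.6 CPM (36.8 to 53.6), sustentacular-like at 38.9 CPM (17.8 to 73.9), noradrenaline chromaffin-like at 37.9 CPM (28.1 to 50.2) and cycling chromaffin-like at 37.4 CPM (26.1 to 52.1). Outer cortex-like cells had 34.7 CPM (29.7 to 40.3), cycling endothelial-like 31.3 CPM (23.2 to 41.3), endothelial-like 28.9 CPM (24.0 to 34.6) and adrenaline chromaffin-like 26.9 CPM (23.3 to 30.9). Inner, cycling and fasciculata cortex-like cells followed at 19.8, 17.9 and 16.8 CPM.

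Only 2 steps between neighbours in this order were larger than counting error, that from adrenaline chromaffin-like to inner cortex-like (1.36 times, 1.11 to 1.66) and that from fasciculata cortex-like to immune-like (2.12 times, 1.07 to 4.78). Larger distances in the order were clearer. Transitioning-like cells stood 1.66 times (1.30 to 2.10) above adrenaline chromaffin-like cells. Within the cortex, outer cortex-like cells were 2.07 times (1.60 to 2.68) above fasciculata cortex-like and 1.75 times (1.42 to 2.15) above inner cortex-like cells. Adrenaline and noradrenaline chromaffin-like cells together were 3.61 times (1.87 to 7.99) above immune-like cells.

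The share of cells with *Ptch1* was 10.2% in adrenaline and 10.4% in noradrenaline chromaffin-like cells, 17.9% in outer cortex-like cells and 22.2% in transitioning-like cells. It was 1.57% in immune-like cells, the lowest of the 13 classes. After thinning to 1000 UMIs these shares were 2.30%, 3.88%, 2.05%, 4.57% and 0.794%, so the lead in share of the outer cortex-like over the chromaffin-like cells was not seen. The thinned outer cortex-like (1.18 to 3.31) and adrenaline chromaffin-like (1.63 to 3.14) intervals overlap widely, so thinning cannot decide between them. In CPM, outer cortex-like cells had 34.7, adrenaline chromaffin-like 26.9 and noradrenaline chromaffin-like 37.95. In outer cortex-like cells with *Shh*, *Ptch1* was found in 19 of 88 (21.6%, 13.5 to 31.7), and in those without in 17.4% (14.7 to 20.4).

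*Smo*, without which the canonical pathway does not run, was almost missing from chromaffin-like cells and present in nearly every other class. Adrenaline chromaffin-like cells had 8 UMIs in 1663 cells, or 1.09 CPM (0.470 to 2.14), and noradrenaline chromaffin-like cells 1 UMI in 384 cells, or 0.774 CPM (0.0196 to 4.32). The 3 cortex zones had 35.1 CPM (30.1 to 40.7) in outer, 30.4 CPM (26.1 to 35.3) in fasciculata and 27.3 CPM (24.2 to 30.6) in inner cortex-like cells, and cycling cortex-like cells had 27.5 CPM (22.2 to 33.6). The cortex zones together were 28.8 times (15.1 to 63.2) above adrenaline and noradrenaline chromaffin-like cells. This ratio was 19.7 when each cell was named from its own markers and 49.9 when the CPM of single cells was averaged in place of summing UMIs. In the order of the 13 classes, the step from transitioning-like to adrenaline chromaffin-like cells (5.40 times, 2.15 to 14.7) was the only one between neighbours larger than counting error.

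Outside the cortex, endothelial-like cells had 28.9 CPM of *Smo* (24.0 to 34.6), which was 27.8 times (14.2 to 62.3) the chromaffin-like level, and 20.1 and 50.9 times under the same alternatives. Cycling endothelial-like cells had 19.4 CPM (13.2 to 27.6), immune-like cells 14.9 CPM (8.70 to 23.9) and fibroblast-like cells 44.7 CPM (23.8 to 76.5, 13 UMIs). The fibroblast-like level was 10.4 CPM when each cell was named from its own markers. Sustentacular-like cells had 30.3 CPM (12.2 to 62.4) from 7 UMIs, 29.1 times (9.21 to 87.8) above the chromaffin-like cells but not above immune-like cells beyond counting error (2.03 times, 0.711 to 5.14). Transitioning-like cells, which carried markers of sustentacular and of chromaffin cells, lay between these at 5.87 CPM (3.29 to 9.68), 5.16 times (1.78 to 13.4) below sustentacular-like and 5.64 times (2.31 to 14.6) above chromaffin-like cells.

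The 4 chromaffin and transitioning classes held 27.5% of all UMIs in named classes but 31 of 945 *Smo* UMIs, or 3.28%. The same classes held 34.8% of the *Ptch1* UMIs and 98.7% of the *Hhip* UMIs. RNA of the receptor and of the ligand trap was thus measured in cells where RNA of the transducer was near 0. Protein was not measured.

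The share of cells with *Smo* was 0.481% (8 of 1663) in adrenaline and 0.260% (1 of 384) in noradrenaline chromaffin-like cells and 2.80% in immune-like cells, a class with *Smo* of its own at the level given above. The shares were 18.7% in outer, 17.4% in fasciculata and 14.4% in inner cortex-like cells. At 1000 UMIs per cell they were 2.43%, 2.86% and 2.72%, against 1.39% in immune-like and 0.0605% in adrenaline chromaffin-like cells. The transitioning-like share was 3.35% before and 0.481% after thinning.

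Outside the cortex, *Smo* was compared with the level that carried-over cortex RNA would give. If *Smo* reached a class only with cortex RNA, in the ratio it has to *Star* in inner cortex-like cells, the expected level was 0.313 CPM in endothelial-like, 0.431 CPM in sustentacular-like and 0.0972 CPM in adrenaline chromaffin-like cells. The measured values were 28.9, 30.3 and 1.09 CPM, and the part of carried-over RNA in them was not tested. Without the chromaffin-like cells that held *Star* and the other cells that held *Chga*, a setting chosen after seeing the data, the ratio of cortex zones to chromaffin-like cells was 32.4. Cycling chromaffin-like cells had 7.49 CPM of *Smo* (3.01 to 15.4, 7 UMIs) and 2.13 CPM by this reckoning, and 12.1% of them were called doublets. Of their 7 UMIs, 1 was in the 103 cells with 5 or more *Pnmt* UMIs.

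*Hhip*, which binds Hedgehog ligands at the cell surface, was found mainly in adrenaline, transitioning and cycling chromaffin-like cells. Adrenaline chromaffin-like cells had 343 of 456 UMIs in named classes, or 46.6 CPM (41.8 to 51.9). Transitioning-like cells had 31.3 CPM (24.8 to 39.0, 80 UMIs) and cycling chromaffin-like cells 24.6 CPM (15.6 to 36.9, 23 UMIs). Transitioning-like and cycling chromaffin-like cells did not differ beyond counting error (1.27 times, 0.792 to 2.12), and their order depended on the processing. When each cell was named from its own markers, cycling chromaffin-like cells had 48.2 CPM and transitioning-like cells 20.9 CPM, and with doublets removed they had 37.0 and 29.5 CPM. Noradrenaline chromaffin-like cells had 4 UMIs in 384 cells, or 3.10 CPM (0.844 to 7.93). The adrenaline class was therefore 15.1 times (5.83 to 55.6) above the noradrenaline class. With 4 UMIs in the latter this ratio moved between 9.23, when the CPM of single cells was averaged, and 28.0, under the stricter filter of 1000 genes and 10% mitochondrial UMIs. The adrenaline class was also 1.49 times (1.17 to 1.92) above the transitioning class, which pools cells with and without *Pnmt*. The 130 transitioning-like cells with 5 or more *Pnmt* UMIs had 81.8 CPM (64.1 to 103), above the adrenaline class. The 227 with 0 *Pnmt* UMIs had 3.01 CPM. The median depth was 6174 UMIs in those 130 cells and 3168 UMIs in the adrenaline class, which was not selected by the *Pnmt* of single cells. The part of depth and of this selection was not tested.

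Outside these classes *Hhip* was close to absent. Of 9 classes without chromaffin markers, 5 had 0 UMIs and outer cortex-like, inner cortex-like and endothelial-like cells had 1 UMI each. Inner cortex-like cells, the deepest class in total UMIs, had 0.0957 CPM (0.00242 to 0.533). Fibroblast-like cells had 3 UMIs in 2 cells, or 10.3 CPM (2.13 to 30.2), where the level expected from their *Chga* was 1.43 CPM. Sustentacular-like cells had 0 UMIs, but with 179 shallow cells this allows up to 13.0 CPM, and a level like that of fibroblast-like cells lies within this limit.

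The share of cells with *Hhip* was also highest in adrenaline chromaffin-like cells. Cycling chromaffin-like cells (12.1%) and transitioning-like cells (12.0%) did not keep the order of their levels, which did not differ beyond counting error. Their shares were 2.90% and 1.92% after thinning. By cell, *Hhip* was in 256 of 1663 adrenaline chromaffin-like cells (15.4%, 13.7 to 17.2), in 4 of 384 noradrenaline chromaffin-like cells (1.04%, 0.285 to 2.65) and in 0 of 572 immune-like cells. After thinning, the shares were 4.11% (3.21 to 5.19) of 1653 and 0.554% (0.0672 to 1.99) of 361 cells. In the adrenaline class 65 cells held 2 or more *Hhip* UMIs, and the highest held 5.

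**Figure D2:**
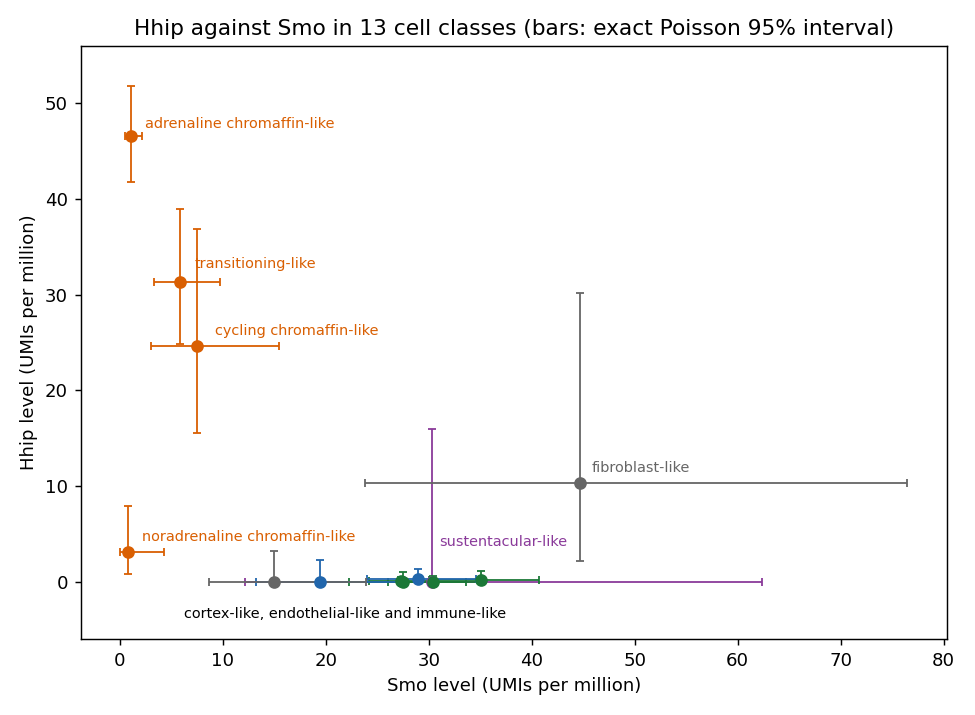
*Hhip* level (y axis) against *Smo* level (x axis), both in CPM, 1 point for each of the 13 classes with exact Poisson 95% intervals. Adrenaline chromaffin-like, transitioning-like and cycling chromaffin-like cells lie at high *Hhip* and low *Smo*, noradrenaline chromaffin-like cells are low in both (3.10 and 0.774 CPM), and the cortex-like, endothelial-like and immune-like classes lie along the x axis.

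*Hhip* was higher in transitioning-like cells with more *Pnmt*, the enzyme that makes adrenaline from noradrenaline. Within the adrenaline chromaffin-like class *Pnmt* differed little, with 12234 CPM in cells with *Hhip* and 11454 CPM in cells without. In the transitioning-like class, divided by *Pnmt* after the values were seen, the 227 cells with 0 *Pnmt* UMIs had 4 *Hhip* UMIs, or 3.01 CPM (0.820 to 7.71). The 61 cells with 1 to 4 *Pnmt* UMIs had 9.0 CPM (1.86 to 26.3) and the 130 cells with 5 or more had 81.8 CPM (64.1 to 103). The last was 27.2 times (10.2 to 102) above the cells without *Pnmt*. *Cdh19*, a sustentacular marker, was in 41.9% of transitioning-like cells with *Pnmt* and 42.3% of those without. *Cox8b* and *Penk*, which the study names as noradrenaline markers, were in 38.7% and 24.6% of the cells with *Pnmt* and in 82.8% and 53.3% of those without. The division by *Pnmt* thus also divided the class by noradrenaline markers. Median depths were 4760, 4162 and 6174 UMIs from the lowest to the highest *Pnmt* bin.

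*Ptch1* and *Smo* did not follow *Hhip* in these cells. *Ptch1* was at 56.4 CPM (44.4 to 70.7) in the transitioning-like cells with 0 *Pnmt* UMIs and at 30.2 CPM (19.9 to 44.0) in those with 5 or more, a ratio of 0.536 (0.332 to 0.842). *Smo* stayed low in both, at 6.77 CPM (3.10 to 12.9) and 5.60 CPM (1.82 to 13.1), and the interval of its ratio includes 1. In cycling chromaffin-like cells all 23 *Hhip* UMIs were in the 103 cells with 5 or more *Pnmt* UMIs.

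**Figure D3:**
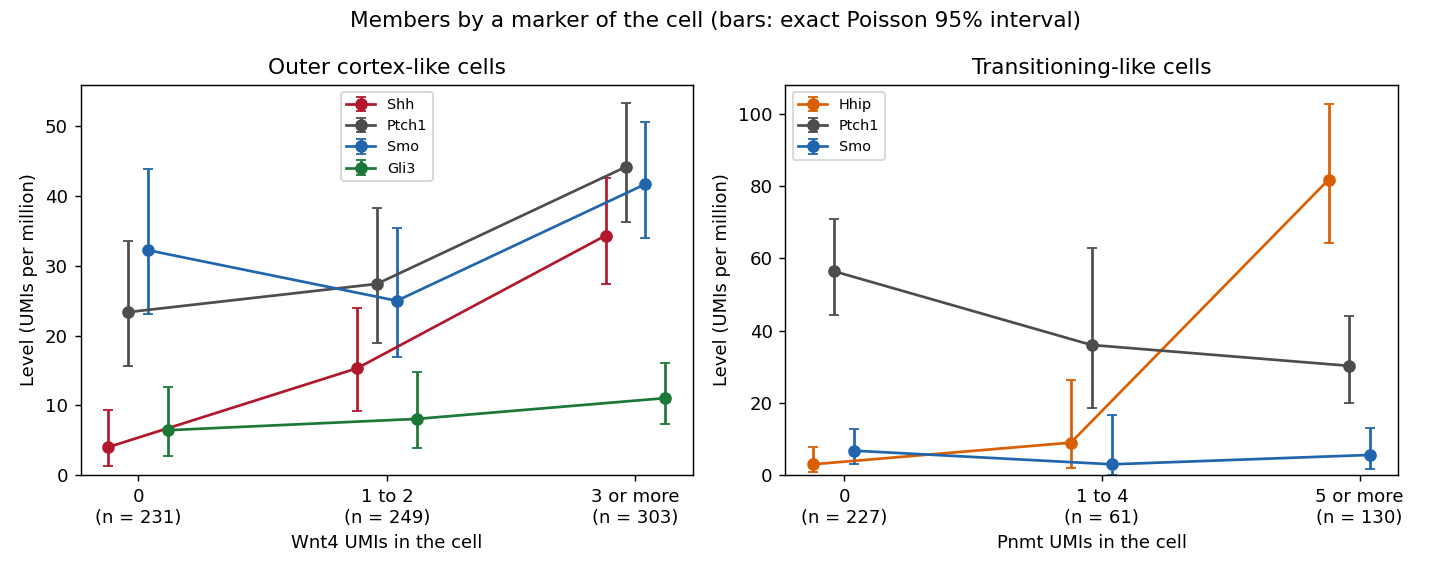
Levels in CPM (y axes, exact Poisson 95% intervals) in outer cortex-like cells by their *Wnt4* UMIs (left) and in transitioning-like cells by their *Pnmt* UMIs (right), with the number of cells under each bin. *Shh* goes from 4.03 to 34.3 CPM over the *Wnt4* bins, and *Hhip* from 3.01 to 81.8 CPM over the *Pnmt* bins.

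The adrenaline chromaffin-like class held 3 clusters, all with *Hhip*. The largest (857 cells, led by *Pnmt* and *Cfap61*) had 31.7 CPM (24.6 to 40.2), the next (687 cells, led by *Olfm3* and *Sema5a*) 53.6 CPM (47.3 to 60.6) and the smallest (119 cells, led by the stress genes *Atf3* and *Egr3*) 42.1 CPM (24.9 to 66.5). The first pair differed 1.69 times (1.29 to 2.25) for *Hhip* and 1.95 times (1.34 to 2.90) for *Ptch1*. Their median depths were 2345 and 5928 UMIs, and the part of depth in this difference was not tested. *Hhip* and *Ptch1* were found together in 42 adrenaline chromaffin-like cells. *Ptch1* had 28.8 CPM in the cells with *Hhip* and 26.3 CPM in the cells without.

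*Gli3*, the mainly repressive transcription factor of the family, was the only *Gli* gene with more than a few UMIs. Of its 140 UMIs in named classes, 45 were in outer cortex-like and 42 in fasciculata cortex-like cells. Sustentacular-like cells had the highest level, 17.3 CPM (4.72 to 44.3), but from 4 UMIs in 4 cells. Outer cortex-like cells had 9.13 CPM (6.66 to 12.2) and fasciculata cortex-like cells 7.35 CPM (5.30 to 9.93), which did not differ beyond counting error (1.24 times, 0.798 to 1.94). In the inner cortex-like class 5 UMIs gave 0.478 CPM (0.155 to 1.12), 19.1 times (7.60 to 61.6) below the outer cortex-like level.

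Among other classes *Gli3* was at 6.89 CPM (3.44 to 12.3) in cycling endothelial-like and 2.43 CPM (1.17 to 4.47) in endothelial-like cells, a ratio of 2.83 (1.09 to 7.44). Cycling cortex-like cells had 4.63 CPM (2.65 to 7.52) and fibroblast-like cells 10.3 CPM (2.13 to 30.2, 3 UMIs). Adrenaline chromaffin-like cells had 0 UMIs in 1663 cells and noradrenaline chromaffin-like cells 1 UMI in 384, together 0.116 CPM, and the cortex zones were 37.7 times (6.60 to 1505) above them. Immune-like cells had 0. By cell, *Gli3* was in 5.62% of outer cortex-like cells and in 0% of immune-like cells, and after thinning in 0.640% and 0%. In outer cortex-like cells with *Shh* 12 of 88 (13.6%, 7.25 to 22.6) held *Gli3*, against 4.60% (3.17 to 6.44) without, at the higher depth given above.

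*Gli1* and *Gli2*, the target and the main activator, were barely detected. *Gli1* had 4 UMIs in 4 of 10139 cells, 2 of them outer cortex-like, 1 transitioning-like and 1 sustentacular-like. *Gli2* had 3 UMIs in 3 cells, 2 outer cortex-like and 1 with markers of more than 1 type. Over all named classes a count of 0 would allow 0.0681 CPM, but in the 90 fibroblast-like cells 0 UMIs of either gene still allow up to 10.3 CPM, and in sustentacular-like cells 0 UMIs of *Gli2* allow up to 13.0 CPM. Of the 4 cells with *Gli1*, 1 held *Ptch1* and 0 held *Hhip*. That 1 cell, outer cortex-like with 17594 UMIs, held 3 *Ptch1* UMIs and 1 *Shh* UMI.

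For pairs of receptor and transducer in the same cell, outer cortex-like cells gave the largest count relative to their number. *Ptch1* and *Smo* were both found in 41 of 783 outer cortex-like, 45 of 1691 inner cortex-like, 14 of 876 fasciculata cortex-like and 11 of 1750 endothelial-like cells. In the 1663 adrenaline chromaffin-like cells 170 held *Ptch1*, 8 held *Smo* and 2 held both. *Smo* and *Gli3* were both found in 12 outer cortex-like and 11 fasciculata cortex-like cells. In cycling cortex-like cells *Ptch1* and *Smo* were both found in 17 of 362. The median depth was 5080 UMIs in outer, 5553.5 in fasciculata and 8381 in cycling cortex-like cells. The part of depth in these counts was not tested, and no association was read from them.

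A wider list of 56 Hedgehog genes, which includes the 7 members, set them in the pathway. Of these, 45 had at least 10 UMIs and 4 had none. The counts of genes at 10 or more UMIs were 8 of 9 for ligands and their release, 7 of 8 for receptors, co-receptors and traps, 15 of 16 for transducers, 8 of 8 for the cilium, 1 of 5 for transcription factors and 9 of 14 for genes known to respond in some tissues, with 4 genes counted under 2 roles. The transcription factor with counts was *Gli3*. A gene was called higher or lower in a comparison where its CPM plus 5 differed by a fold of 2 or more and it had at least 10 UMIs in the groups compared. With 1 library such a call is a size and not a test.

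Outer cortex-like cells were set against the other cortex-like cells. Of 44 list genes with enough UMIs 7 were higher (15.9%, where 6.91% of 13771 genes were). Their median log2 fold was 0.48, against 0.08 for all genes. *Shh* was the member called, with a fold of 4.51 on the scale of CPM plus 5, and of the 4 members with enough UMIs 0 were lower (3.54% of all genes were). *Boc*, a co-receptor for SHH, had 266 UMIs and 54.0 CPM (47.7 to 60.9) in outer cortex-like, 40.2 CPM in fasciculata cortex-like and 2.30 CPM in inner cortex-like cells, and 1 UMI in the adrenaline and noradrenaline chromaffin-like cells together. *Ccnd1*, a cyclin for entry into the cell cycle, had 148 CPM in outer against 2.49 CPM in inner cortex-like cells, and *Nr2f2*, a nuclear receptor also found in capsule and endothelium, 136 against 25.4 CPM. Both were highest in endothelial-like cells, at 735 and 813 CPM, and outer cortex-like cells held 183 CPM of the endothelial marker *Emcn*. The part of endothelial RNA in these calls was not tested.

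Adrenaline and noradrenaline chromaffin-like cells were set against the other named classes without the transitioning and cycling chromaffin classes, a comparison chosen after the values were seen. Of 45 list genes 10 were higher (22.2%, against 11.3% of 16057 genes) and 4 lower (8.89%, against 13.2%). *Hhip* was the member called higher and *Smo* the member called lower. *Disp2*, a relative of the ligand release protein DISP1, had 156 CPM (147 to 165) in adrenaline and 129 CPM in noradrenaline chromaffin-like cells and at most 0.626 CPM in the cortex-like and endothelial-like classes. *Mycn*, a growth-promoting transcription factor, had 26.2 CPM (22.7 to 30.2) in the adrenaline and 10.8 CPM in the noradrenaline class. *Ift122*, a part of the transport machinery of the cilium, had 57.5 CPM (52.2 to 63.3) and 31.0 CPM in the same classes.

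The 4 genes called lower in chromaffin-like cells were *Smo*, *Boc*, *Gas1* and *Nr2f2*. *Gas1*, a co-receptor, had 0.272 CPM in adrenaline chromaffin-like cells while the 4 cortex-like classes had 35.0 to 42.8 CPM, with its highest level, 65.4 CPM (39.4 to 102), in fibroblast-like cells. *Nr2f2* was highest in endothelial-like cells, at 813 CPM (785 to 841), and had 9.93 CPM in adrenaline chromaffin-like cells. *Boc* and *Gas1* were thus near 0 in chromaffin-like cells, as *Smo* was, but *Gas1* was also at only 1.22 CPM in endothelial-like cells, where *Smo* was high. *Cdon*, a co-receptor named here after its values were seen, went the other way. It had 9.37 CPM in the chromaffin-like cells and 2.29 CPM in the classes they were set against, a fold of 1.97 that was not called.

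Between adrenaline and noradrenaline chromaffin-like cells 2 of 33 list genes were higher in the former (6.06%, against 3.08% of 12707 genes) and 0 were lower (3.37% of all genes were). They were *Hhip*, with a fold of 6.38 on the scale of CPM plus 5 that was above that of 99.8% of the genes compared, and *Bmp4*, a secreted growth factor, with 7.62 against 0.774 CPM. This comparison was likewise chosen after the values were seen.

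Sustentacular-like cells were set against adrenaline and noradrenaline chromaffin-like cells. Of 36 list genes 6 were higher (16.7%, against 12.2% of 13013 genes) and 7 lower (19.4%, against 17.7%), which is near the background in both directions. *Smo* was the member called higher and *Hhip* the member called lower. *Bcl2*, an inhibitor of cell death, had its highest level in sustentacular-like cells, 95.2 CPM (59.7 to 144), against 6.39 CPM in adrenaline chromaffin-like cells. *Dhh*, the Hedgehog ligand of the Schwann cell lineage, named here after its values were seen, had 7 UMIs in sustentacular-like cells, or 30.3 CPM (12.2 to 62.4), 5.87 CPM in transitioning-like cells and 0 UMIs in adrenaline chromaffin-like cells. It was not confined to these classes. Of its 78 UMIs in filtered cells, 55 were in the named classes without the 4 chromaffin and transitioning classes. Of these 55, 12 were in outer cortex-like cells (2.435 CPM), 6 in the other cortex-like classes and 1 in fibroblast-like cells. Apart from the 7 of sustentacular-like cells, the rest of the 55 were in endothelial-like, cycling endothelial-like and immune-like cells. Noradrenaline chromaffin-like cells had 2 (1.55 CPM).

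Fibroblast-like cells were set against all other cells. Of 45 list genes 11 were higher (24.4%, against 9.62% of 16510 genes) and 2, *Disp2* and *Mycn*, were lower (4.44%, against 8.67%), with a median log2 fold of 0.36 for the list and -0.08 for all genes. *Ptch1* and *Shh* were the members called higher, the latter from the 4 UMIs described above. *Bmp4* had 58.5 CPM (34.1 to 93.7) there and at most 7.62 CPM in any other class. *Ccnd1* had 389 CPM, less than the 735 CPM (709 to 762) of endothelial-like cells. With 90 cells and RNA of cortex, chromaffin and endothelial types in them, the part of those cells in these calls was not tested.

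*Grk2*, a kinase that acts on SMO, was highest in immune-like cells at 117 CPM (97.8 to 138), against 9.09 to 17.9 CPM in the cortex-like classes.

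**Figure D4:**
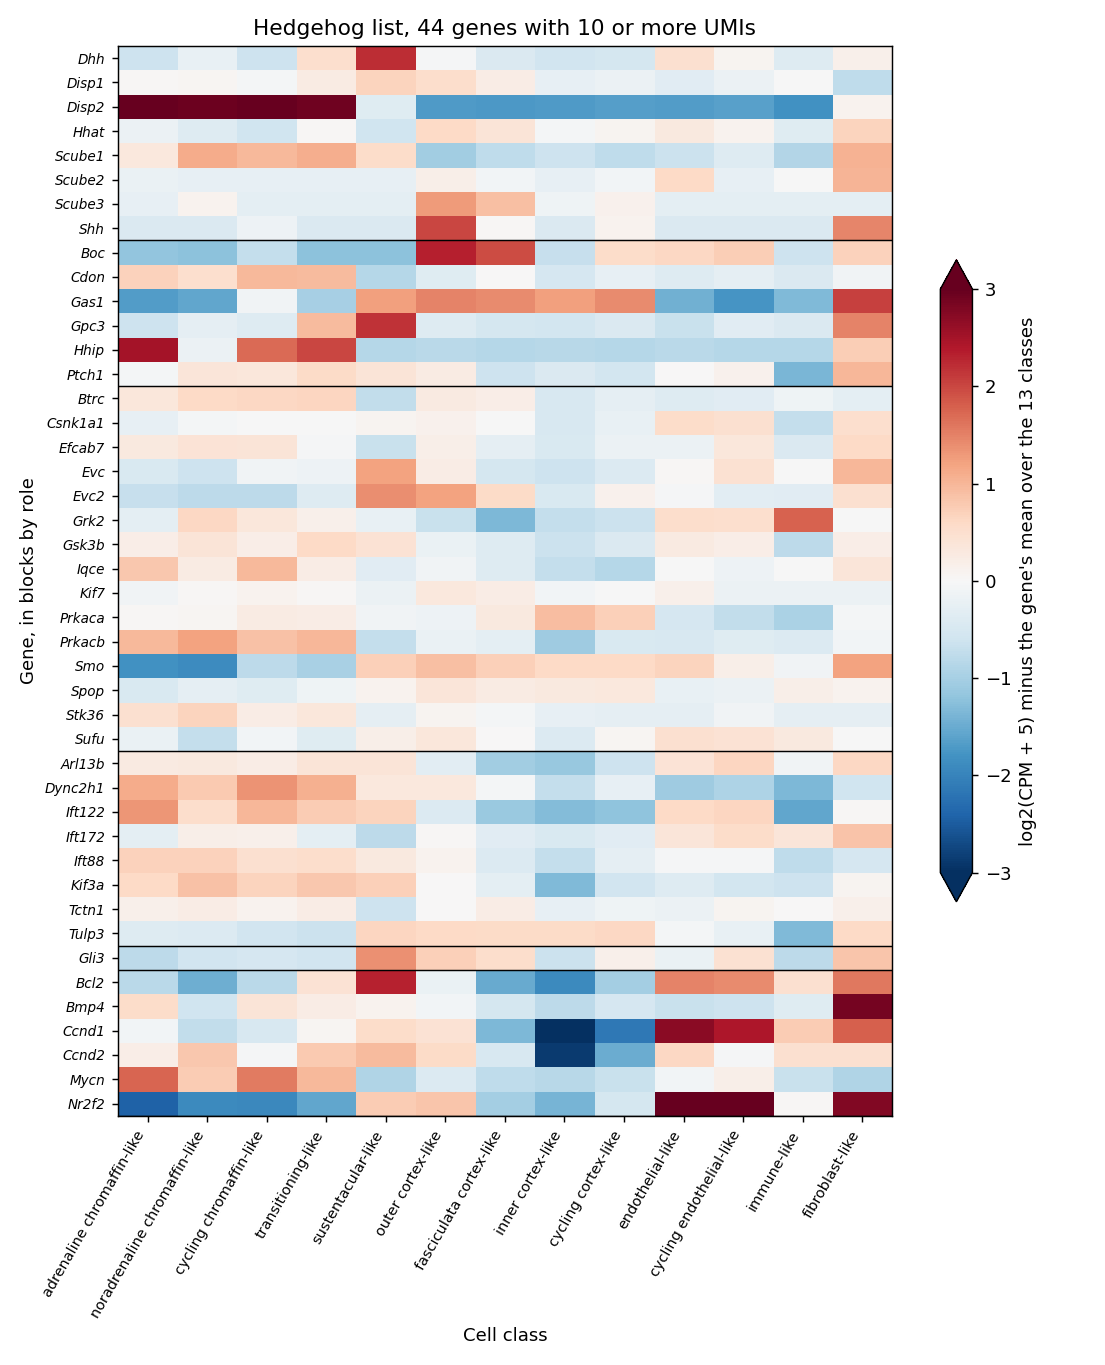
The values of 44 of the 45 Hedgehog list genes with 10 or more UMIs (rows, in blocks by role from ligands at the top to genes known to respond in some tissues at the bottom) in the 13 classes (columns). Colour is log2(CPM + 5) minus the mean of the gene over the classes, and values past 3 on either side are drawn at 3. *Disp2* and *Hhip* are high and *Smo*, *Boc* and *Gas1* low in the adrenaline chromaffin-like column, and *Shh* and *Boc* are high in the outer cortex-like column.

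For each member with at least 20 UMIs, the 3 genes with the most similar pattern over the 13 classes were taken by Pearson's r of log2(CPM + 5) among 15325 other genes. The 13 points come from 1 library and differ in depth, so the r values are descriptions. For *Shh* they were *Pla2g2f* (r = 0.992), D630039A03Rik (0.982) and *Grpr* (0.971), each with 31 to 64 UMIs and highest in outer cortex-like cells. For *Hhip* they were *Trnp1* (0.975), *Igf2* (0.970) and *Bdkrb2* (0.969), all highest in adrenaline chromaffin-like cells. For *Smo* they were *Acot9* (0.980), *Rest* (0.973), a repressor of neuronal genes, and *Klhl5* (0.966). *Ptch1* was closest to *Hoxd8* (0.937), *Vezf1* (0.924) and *Zmym5* (0.919), and among those closest to *Gli3* were *Paf1* (0.933) and *Syde1* (0.917).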

How the data were processed

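Droplet-based 3′ single-cell RNA sequencing (10x Genomics, v3.1 chemistry) was done on 1 pool of adrenal medullae. The deposited matrix was made by the authors with Cell Ranger 4.0.0 on build mm10 and gives whole UMI counts, not normalized, for each gene in each barcode (11214 barcodes with 500 to 33809 UMIs, 51421499 UMIs in all). Cells with 500 to 5000 genes and at most 20% mitochondrial UMIs were kept, as in the study, which left 10139.

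Cells were clustered with Seurat 5.3.0 in R 4.3.3 with the study's settings (2000 variable features, 10 principal components, Louvain resolution 0.4), except that the 56-gene Hedgehog list was left out of the variable features, which removed 7 genes. Clusters of medullary cells were clustered again in 2 further passes. A cluster took its name from a list of which 3 or more markers were found in at least 50% of its cells each (25% for sustentacular and cycling markers). Capsule and mural lists were not used for names. Adrenaline clusters had *Pnmt* in at least 50%. Cortex zones also needed a zone marker among the top 10 genes by fold. These limits were set after the clusters were seen, and names rebuilt in this way may differ from those of the study. Doublets, called by Scrublet in scanpy 1.11.5 at an expected rate of 8%, were kept in the main values.

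UMIs were summed per class with Python 3.11.15, numpy 2.4.6, scipy 1.17.1 and pandas 2.3.3, and figures were drawn with matplotlib 3.10.9. The script for folds was tested on simulated data. Thinning to 1000 UMIs left out 56 sustentacular-like, 272 endothelial-like, 68 immune-like and 19 fibroblast-like cells and between 0 and 23 of every other class. The members, the gene lists and the marker lists were chosen with earlier results of these data known. The text names the 7 members, up to 10 other list genes with at least 10 UMIs and a fold of 2 or more in their highest class, the 3 genes most like each member and the markers that check a class. Some genes on the lists or named by these rules are not reported here.

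Each alternative differed from the main values in 1 choice, except the stricter filter, which changed both limits on cells together. Tried were the Hedgehog list kept in the variable features, resolutions of 0.2 and 0.8, 30 principal components, at least 1000 genes with at most 10% mitochondrial UMIs, doublets removed, each cell named from its own markers, the mean of the CPM of single cells, 2 UMIs for detection, thinning, pseudocounts of 1 and 10, no filter or a filter of 50 UMIs, and a fold of 3. Chosen after seeing the data was to leave out chromaffin-like cells with *Star* and other cells with *Chga*.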

Additional observations from a re-analysis of the deposited data

Results flagged for a closer look

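The 1075 barcodes outside the filter on cells, which no comparison above uses, held UMIs of 5 members above the limit that a count of 0 allows. There were 25 UMIs of *Shh*, 80 of *Ptch1*, 55 of *Smo*, 12 of *Gli3* and 43 of *Hhip*. All 25 *Shh* UMIs came from 10 of the 78 barcodes with more than 5000 genes, where *Shh* had 13.5 CPM beside 140 CPM of *Wnt4*, 3650 CPM of *Star* and 6413 CPM of *Chga*, at a median of 22790 UMIs. The other 997 barcodes held 0 *Shh* UMIs, 12 of *Ptch1*, 12 of *Smo*, 4 of *Gli3* and 4 of *Hhip*.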

How the results depend on the processing

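Of 373 values recomputed under the alternatives, 325 stayed within the counting interval or within 1.5 times the main count, and the ratios of *Shh*, *Smo* and *Hhip* between classes stayed above 1 in each alternative that gave one. Values marked as main results moved more often, with 38 moved and 125 not, against 10 moved and 200 not among the others. At resolution 0.8 the *Shh* level in outer cortex-like cells was 30.6 CPM, its share of cells 13.9% and its ratio to fasciculata cortex-like cells 62.2, and that ratio was 43.3 with doublets removed. The mean of single-cell CPM gave 40.0 CPM of *Hhip* and 22.6 CPM of *Ptch1* in adrenaline chromaffin-like cells. Shares of cells followed depth and the UMIs asked for. At least 2 UMIs were found for *Shh* in 2.04% of outer cortex-like cells, for *Hhip* in 3.91% of adrenaline chromaffin-like cells, and for *Smo* in 0% and *Ptch1* in 1.61% of adrenaline and noradrenaline chromaffin-like cells. After thinning the same shares with 1 UMI were 3.33%, 4.11%, 0.0497% and 2.58%, and 17 cells with *Shh* and *Wnt4* and 10 with *Shh* and *Cyp11b1* remained. The stricter filter on cells gave 18.4% for *Hhip* and 12.4% for *Ptch1*.

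Counts of list genes past the fold changed with the pseudocount and the fold. A pseudocount of 1 CPM gave 5 lower in fibroblast-like, 17 higher in outer cortex-like, 12 lower in sustentacular-like and 12 lower in chromaffin-like cells, and 5 higher and 1 lower in the adrenaline class. A pseudocount of 10 CPM gave 7 higher and 1 lower in fibroblast-like, 0 lower in outer cortex-like and 4 lower in sustentacular-like cells and 1 higher in the adrenaline class. A fold of 3 gave 4 higher and 0 lower in fibroblast-like, 4 higher and 0 lower in outer cortex-like, 4 lower in sustentacular-like and 4 higher in chromaffin-like cells and 1 higher in the adrenaline class. Without a filter on low counts 10 were higher in sustentacular-like cells, and with 50 UMIs 3 were. In that comparison 6 were higher and 7 lower in the main values, and the balance turned with a pseudocount of 10 CPM (5 and 4), a fold of 3 (5 and 4) and no filter (10 and 7). The *Hhip* level of cycling chromaffin-like cells, below that of transitioning-like cells in the main values, was above it at resolution 0.8 (42.7 and 31.4 CPM), with 30 principal components (36.9 and 32.1), under the stricter filter (35.0 and 31.8), with doublets removed (37.0 and 29.5) and with cells named from their own markers (48.2 and 20.9). In the main values the levels of these classes did not differ beyond counting error (1.27 times, 0.792 to 2.12). The cause of the change in order was not tested.

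The stricter filter left no outer cortex-like, fasciculata cortex-like, fibroblast-like or sustentacular-like class, resolution 0.2 no outer cortex-like, fibroblast-like or cycling chromaffin-like class, and 30 principal components no inner cortex-like class, so these gave no value there. No paired analysis was possible because there was 1 library. Depth limits what can be said of *Gli1* and *Gli2*, and of every member in the sustentacular-like and fibroblast-like classes.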
